A study of Homo sapiens with 6 samples.

Results

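NRF2, the transcription factor encoded by NFE2L2, and 9 genes of its antioxidant program were followed in T24 cells that carried an empty vector or overexpressed RNF112. The genes were taken by symbol from the deposited tables: NFE2L2, HMOX1, NQO1, GCLM, GCLC, TXNRD1, SRXN1, OSGIN1, AKR1C1 and AKR1B10. These are 10 of the 23152 genes listed, and 9 of the 14467 genes with enough counts to be tested, since AKR1B10 was left out by the filter on low counts. HMOX1, TXNRD1, SRXN1, OSGIN1 and GCLM rose in the oeRNF112 samples, NQO1 fell, and NFE2L2 itself, GCLC and AKR1C1 did not pass the test.

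T24 cells, a long-established line from a human bladder cancer, were grown in serum-containing medium, and RNF112 is a RING-type E3 ubiquitin ligase. The labels give 3 samples named vector and 3 named oeRNF112, all of this cell line, and the study sequenced them to look for events downstream of RNF112. The deposited treatment text describes siRNA transfection while the labels say overexpression, and the sources used here do not state whether the sequenced cells were transfected transiently or were a stable line. Nothing in the labels says that the 3 samples of a group were separate cultures, so the p-values measure the spread between these samples, which may be technical.

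In unstressed cells the NRF2 protein is bound by KEAP1, which presents it to a CUL3 and RBX1 ubiquitin ligase, and it is degraded. When electrophiles or oxidants modify KEAP1, NRF2 accumulates, pairs with a small MAF protein and binds the antioxidant response element of genes for glutathione synthesis, thioredoxin reduction, quinone reduction and heme breakdown. BACH1 also pairs with small MAF proteins and represses many of the same genes, HMOX1 foremost among them. The amount of NRF2 is set largely on the protein, which RNA sequencing does not measure.

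RefSeq promoter windows of 300 bases, from 250 bases before to 50 bases after a transcription start (build GRCh38.p14), were matched for 8 of the 10 genes, with 10 windows in all. They were searched on both strands for TGACNNNGC, the core of the antioxidant response element, and for TGAGTCA, an AP-1 site. The motifs can overlap, because a core with TCA in place of NNN contains the reverse complement of the AP-1 site, and such a stretch counts under both. The core was present in 13.3% of 35116 windows (16.1% of 27305 genes) and in 3 of the 10 windows here, those of GCLM and of both starts of TXNRD1. The AP-1 letters were present in 4.95% of all windows and here in that of OSGIN1. The windows of NFE2L2, NQO1, GCLC, AKR1C1 and SRXN1, the last of which rose, held neither. Among genes that control NRF2, 3 of the 12 with a window held the core. These were KEAP1, which fell and had 2 cores in one of its windows, MAFF, which rose, and RBX1, which did not pass the test. The stretches of GCLM, TXNRD1 and OSGIN1 are shown because they hold every match found in the 10 windows. Each is read 5′ to 3′ on the strand that spells the motif, with the motif in capitals.
GCLM, chr1:93909446-93909475, plus strand (gene on minus): tggaagacaaTGACTAAGCagaaatcgtag
TXNRD1 first start, chr12:104215670-104215699, plus strand: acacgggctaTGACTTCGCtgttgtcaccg
TXNRD1 first start, chr12:104215760-104215789, minus strand (gene on plus): ctgtgggaacTGACGGAGCcgaaggacgcc
TXNRD1 second start, chr12:104286919-104286948, minus strand (gene on plus): agagtcagaaTGACAAAGCagaaatccact
OSGIN1, chr16:83953131-83953160, minus strand (gene on plus): tttcataagcgTGAGTCAgcaggggcccgt

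The stretches of GCLM and of the second TXNRD1 start were alike at 19 of 30 positions, with a longest shared run of 11 bases. A match of letters is a description and not a bound site, and the windows are too short to hold distal enhancers. The core was present in 58.3% of the 12 genes with a window on a list of glutathione supply and use. On a list of thioredoxins, peroxiredoxins and sestrins it was present in 9.09% of 11 genes. It was found in 3 of 5 genes that make NADPH and 2 of 8 for heme and iron handling. Lists of carbonyl and quinone metabolism, exporters, and superoxide dismutases with catalase had it in 5 of 15, 1 of 3 and 0 of 3 genes. Whether the core went with a rise was not tested. Sequence just upstream of the RefSeq start is shown for both subunits of glutamate-cysteine ligase, since GCLM rose and GCLC did not pass the test. The RefSeq start of GCLC lies inside the span that GENCODE gives the gene, which has other starts farther upstream. Both genes lie on the minus strand, and the sequences are given in the direction of the gene. The capitals in the GCLM sequence are the core read on the opposite strand.
GCLM, chr1:93909456-93909680, minus strand: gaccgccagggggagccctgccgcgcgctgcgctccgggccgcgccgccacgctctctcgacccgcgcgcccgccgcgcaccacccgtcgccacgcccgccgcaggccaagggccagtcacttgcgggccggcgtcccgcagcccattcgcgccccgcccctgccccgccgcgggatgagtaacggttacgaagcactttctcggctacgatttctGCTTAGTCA
GCLC, chr6:53545130-53545351, minus strand: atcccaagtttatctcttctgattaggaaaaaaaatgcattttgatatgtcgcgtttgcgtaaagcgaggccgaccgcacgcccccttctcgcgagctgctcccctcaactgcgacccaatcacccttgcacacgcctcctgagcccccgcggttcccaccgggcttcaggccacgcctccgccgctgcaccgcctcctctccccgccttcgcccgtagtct

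The total counts per sample were between 40029547 and 41259569. RNF112 itself had 27, 19 and 24 counts in vector and 29753, 36963 and 31712 in oeRNF112, a log2 fold change of 10.37, and these reads may include the introduced construct. Values below are normalized CPM, which are read counts scaled to a common library size with TMM factors, and fold changes are oeRNF112 over vector from edgeR's quasi-likelihood test. A gene was called higher or lower at a Benjamini-Hochberg adjusted p under 0.05 over all genes tested, and SE is the standard error of the log2 fold change. Of all genes tested, 9.97% were called higher and 8.14% lower, and the samples of both groups did not overlap for 36.8%. With library totals in place of TMM factors, 2020 genes were higher and 659 lower, against 1442 and 1178. The keratins KRT7, KRT8, KRT18 and KRT19, which mark epithelial cells, were abundant, while UPK2 and UPK3A, which mark differentiated urothelium, were at or near 0. The urothelial and epithelial markers listed in the tables, 8 in number, summed to between 3531 and 4550 CPM in vector and between 2713 and 3255 in oeRNF112. Keratins made up nearly all of this sum, and KRT7 and KRT18 fell, while EPCAM rose 1.79-fold from a low level (adjusted p = 0.0208 by edgeR) and GATA3 was not called (log2 fold change 0.14). The 10 leukocyte markers summed to between 9.48 and 10.97 CPM in vector and between 5.43 and 8.49 in oeRNF112. CD3E was at 0 counts in every sample but 1, and 5 of the markers were under 10 counts in every sample. LAPTM5 was the largest part of the sum, at 5.99 to 7.41 CPM in vector and 2.63 to 5.19 in oeRNF112. It was called lower (log2 fold change -0.88, adjusted p = 0.0308 by edgeR), while PTPRC and CD14 were detected at low levels and not called. The part of these shifts in the results was not tested.

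Of the 9 genes tested, 5 were called higher (55.6%) and 1 lower (11.1%), and the groups did not overlap for 7. Their median log2 fold change was 0.40, against 0.0027 over all genes tested. The genes were chosen with earlier results of these data known, so their excess over all genes is a description and not a test. In these bulk samples, fewer cells that express a gene and less RNA per cell cannot be told apart. The calls were not equally firm: HMOX1 and OSGIN1 were called in each of 16 alternative settings. NQO1 was called in 15, and GCLM, TXNRD1 and SRXN1 each lost the call when certain samples were left out. Without vector replicate 1, only HMOX1 and OSGIN1 among the 10 were called higher and NQO1 was still called lower.

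**Figure D1:**
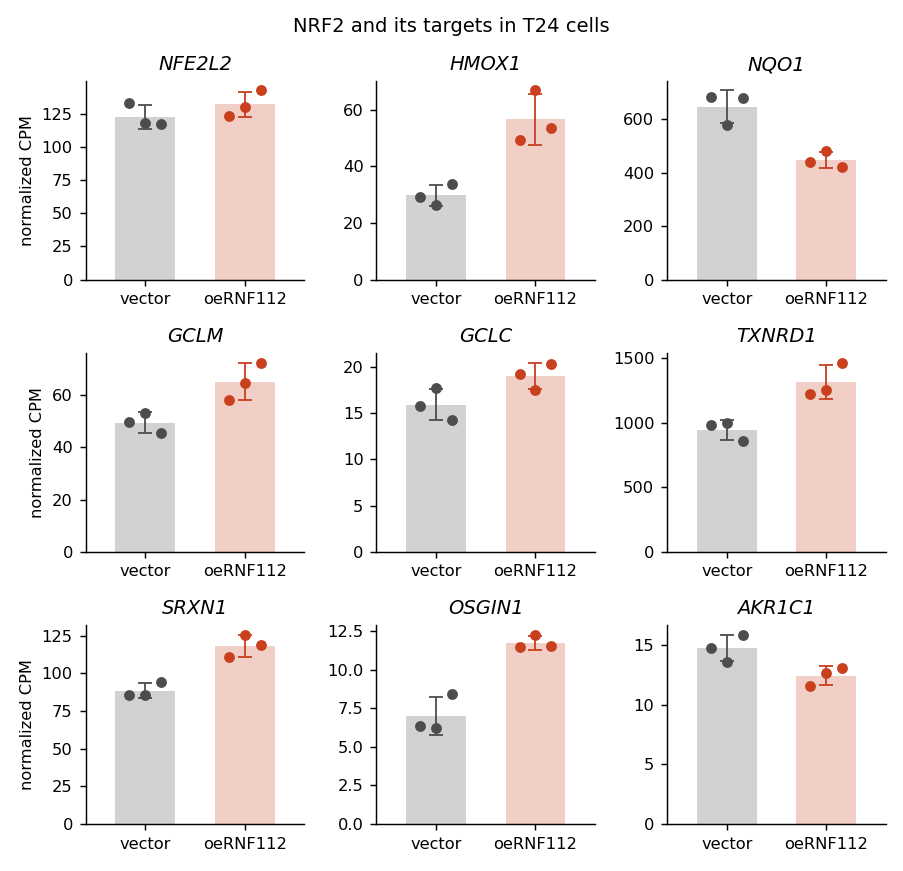
Normalized CPM (y axis, from 0) of the genes of the NRF2 program in vector and oeRNF112 samples, with 1 point per sample, bars at the mean of 3 samples and error bars of 1 SD. HMOX1 had 29.7 CPM in vector and 56.5 in oeRNF112, NQO1 had 648 and 448, and the points of NFE2L2 in both groups overlap.

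NFE2L2 (chr2:177227595-177392697, minus strand, GENCODE 29 on GRCh38) had 133, 118 and 117 CPM in vector and 123, 130 and 142 in oeRNF112. The groups overlapped, with the highest vector sample above 2 of the 3 oeRNF112 samples. The means were 123 ± 9.2 and 132 ± 9.6 (SD, n = 3 each), and the log2 fold change was 0.11 (SE 0.093, 95% confidence interval -0.10 to 0.31, adjusted p = 0.462 by edgeR's test). Leaving out each sample in turn gave values between 0.047 and 0.182. Across the 6 samples, NARS1 and GORAB were among the profiles nearest to that of NFE2L2 of 11564 genes with a mean count of at least 100. Their log2 values, relative to the vector mean, differed from those of NFE2L2 by a root mean square of 0.027 and 0.039.

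HMOX1 (chr22:35380361-35394214, plus strand) encodes heme oxygenase 1, which opens the heme ring to give biliverdin, carbon monoxide and iron. It had 29.1, 26.4 and 33.7 CPM in vector and 49.2, 66.8 and 53.7 in oeRNF112. Every oeRNF112 sample was above every vector sample, and replicate 2 was the highest. The means were 29.7 ± 3.7 and 56.5 ± 9.1 (SD, n = 3 each). HMOX1 rose 1.90-fold, the largest change among the 9 genes (log2 fold change 0.93, SE 0.135, 95% confidence interval 0.63 to 1.23, adjusted p = 0.00195 by edgeR's test). In the order of all tested genes by size of change it was at position 947. HMOX2, the constitutive heme oxygenase, did not pass the test, with a log2 fold change of 0.21 and an adjusted p of 0.272 by edgeR. Nearest to HMOX1 in profile over the 6 samples were DUSP8, GADD45A and TFPI2, with root mean square differences of 0.066, 0.084 and 0.085. Their log2 fold changes were 0.97, 0.96 and 0.95. That these lie near the value of HMOX1 follows from how the 3 genes were picked.

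OSGIN1 (chr16:83948282-83966332, plus strand), an oxidative stress-induced growth inhibitor, had 6.32, 6.23 and 8.42 CPM in vector and 11.5, 12.3 and 11.5 in oeRNF112. The oeRNF112 samples lay close together and above all vector samples. The means were 6.99 ± 1.2 and 11.7 ± 0.45 (SD, n = 3 each), a rise of 1.68-fold (log2 fold change 0.75, SE 0.141, adjusted p = 0.00677 by edgeR's test). An overlapping GENCODE gene shares 9.39% of the 50-base windows of its transcript, so a small part of the reads could belong to either.

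Glutamate-cysteine ligase makes the first and limiting step of glutathione synthesis with a catalytic subunit, GCLC, and a modifier subunit, GCLM, that raises its activity. GCLM (chr1:93885205-93909456, minus strand) had 49.7, 53.3 and 45.5 CPM in vector and 58.2, 64.7 and 72.5 in oeRNF112. The groups did not overlap, and the spread of the oeRNF112 samples was the wider. The means were 49.5 ± 3.9 and 65.1 ± 7.1 (SD, n = 3 each), a rise of 1.32-fold (log2 fold change 0.40, SE 0.107, adjusted p = 0.0303 by edgeR's test). Of the 6 genes called it had the largest adjusted p, and the call was lost without vector replicate 1 (adjusted p = 0.103 by edgeR), vector replicate 3 (0.0754), oeRNF112 replicate 2 (0.0503) or oeRNF112 replicate 3 (0.117).

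GCLC (chr6:53497341-53616970, minus strand) had 15.8, 17.7 and 14.3 CPM in vector and 19.3, 17.5 and 20.3 in oeRNF112. The groups overlapped, since oeRNF112 replicate 2 was just below vector replicate 2. The means were 15.9 ± 1.7 and 19.0 ± 1.4 (SD, n = 3 each), and the log2 fold change of 0.26 did not pass the test (SE 0.115, 95% confidence interval 0.0017 to 0.51, adjusted p = 0.149 by edgeR). The ratio of GCLM to GCLC in RPKM, which counts reads per length, was 1.89, 1.80 and 1.90 in vector and 1.81, 2.21 and 2.13 in oeRNF112. The ratios overlapped, and their log2 values differed by 0.13 (exact permutation p = 0.3, two-sided, where 3 samples against 3 allow no p below 0.1; 0.5 when adjusted over the 2 ratios tested here). This design could not bring the test of the ratios below 0.05, so it does not show whether the subunits differed in response.

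TXNRD1 (chr12:104215779-104350305, plus strand) encodes the cytosolic thioredoxin reductase, which uses NADPH to reduce thioredoxin. It had 980, 997 and 855 CPM in vector and 1221, 1254 and 1464 in oeRNF112. The groups did not overlap, with vector replicate 3 the lowest and oeRNF112 replicate 3 the highest. The means were 944 ± 78 and 1313 ± 132 (SD, n = 3 each), a rise of 1.39-fold (log2 fold change 0.48, SE 0.106, adjusted p = 0.0141 by edgeR's test). Without vector replicate 1 the log2 fold change was 0.52 and the adjusted p 0.0556 by edgeR. The mitochondrial reductase TXNRD2 (log2 fold change -0.06, adjusted p = 0.762 by edgeR) and TXNRD3 (0.01, adjusted p = 0.941) did not pass the test.

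SRXN1 (chr20:646615-653370, minus strand) encodes sulfiredoxin, which restores overoxidized peroxiredoxins. It had 86.0, 85.5 and 94.4 CPM in vector and 111, 125 and 119 in oeRNF112. The groups did not overlap. The means were 88.6 ± 5.0 and 118 ± 7.3 (SD, n = 3 each), a rise of 1.34-fold (log2 fold change 0.42, SE 0.0879, adjusted p = 0.0110 by edgeR's test). Without vector replicate 1 the log2 fold change was 0.41 and the adjusted p 0.0579 by edgeR. SRXN1 shares 84.7% of its 50-base windows with an overlapping GENCODE gene, AL121758.1, so its reads could be assigned to either and its level is uncertain.

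NQO1 (chr16:69706996-69726951, minus strand) encodes an NADPH quinone reductase that is widely used as a readout of NRF2 activity. It had 686, 578 and 680 CPM in vector and 441, 480 and 422 in oeRNF112. Every oeRNF112 sample was below every vector sample. The means were 648 ± 61 and 448 ± 29 (SD, n = 3 each), and NQO1 fell to 0.692 of its vector level (log2 fold change -0.53, SE 0.0989, 95% confidence interval -0.75 to -0.31, adjusted p = 0.00633 by edgeR's test). The call held when each of the 6 samples was left out. Over all genes tested, the median log2 fold change rose with gene length, from -0.11 in the shortest quartile to 0.08 in the longest. It was -0.02 in the quartile that holds NQO1 and SRXN1 (2344 to 3982 bases). By mean count it fell from 0.16 in the least to -0.06 in the most abundant quartile, to which both genes also belong. The part of length and abundance in their changes was not tested. NQO2, the related reductase, had a log2 fold change of 0.13 and an adjusted p of 0.433 by edgeR.

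The aldo-keto reductases AKR1C1 and AKR1B10 reduce carbonyl compounds and steroids or retinal. AKR1C1 (chr10:4963253-4983283, plus strand) had 14.8, 13.6 and 15.9 CPM in vector and 11.6, 12.7 and 13.1 in oeRNF112. These values did not overlap. The means were 14.8 ± 1.1 and 12.4 ± 0.79 (SD, n = 3 each), and the log2 fold change of -0.25 did not pass the test (SE 0.11, adjusted p = 0.152 by edgeR). In RPKM, which has no TMM scaling, the groups of AKR1C1 did overlap, at 2.06 to 2.32 in vector and 1.83 to 2.10 in oeRNF112. AKR1B10 (chr7:134527592-134541408, plus strand) had 1 count in oeRNF112 replicate 2 and 0 in the other 5 samples. A count of 0 allows up to 3 counts, or 0.0727 to 0.0749 CPM before TMM scaling, which covers counting error only.

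AKR1C1 shares 28.7% of its 50-base windows with AKR1C2 and AKR1C3, so reads can be split among them. AKR1C3 had 10.7, 9.23 and 10.8 CPM in vector and 6.30, 6.62 and 5.83 in oeRNF112. These groups did not overlap, and AKR1C3 fell by 0.71 on the log2 scale (adjusted p = 0.00471 by edgeR's test). AKR1C2, of whose windows 52.2% are shared, had 6, 16 and 8 counts in vector and 9, 6 and 1 in oeRNF112 and was not tested. The ratio of AKR1C1 to AKR1C2 in RPKM was 61.4, 21.5 and 48.2 in vector and 33.5, 54.8 and 349 in oeRNF112. It rests on few AKR1C2 counts, and its log2 value differed by 1.11 (exact permutation p = 0.5, two-sided, smallest possible 0.1; 0.5 when adjusted over the 2 ratios). Among the AKR1B genes, AKR1B1 was abundant and did not pass the test (log2 fold change -0.05, adjusted p = 0.747 by edgeR), and AKR1B15 had 1 count in vector replicate 2, 4 in oeRNF112 replicate 1 and 0 in the others.

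Levels were compared between genes only per length, in RPKM, as means ± SD of 3 samples. In vector, NQO1 (248 ± 19.1) and TXNRD1 (215 ± 20.3) were the most abundant of the 9, and their ranges of 226 to 261 and 192 to 231 overlapped. In oeRNF112 the order was the opposite, with TXNRD1 at 297 to 360 in every sample above NQO1 at 176 to 193. NFE2L2 (37.3 ± 2.57 in vector, 42.8 ± 3.6 in oeRNF112) and SRXN1 (33.9 ± 1.61 and 48.3 ± 2.61) came next, and their ranges overlapped in both groups. HMOX1 stood below them in vector at 18.5 ± 2.07, while in oeRNF112 its range of 32.8 to 43.6 overlapped that of NFE2L2, 40.2 to 46.9. GCLM followed at 7.51 ± 0.711 and 10.5 ± 1.25. GCLC (3.58 to 4.57) and OSGIN1 (3.15 to 4.19) overlapped in vector, and OSGIN1 (6.17 to 6.47) was above GCLC (4.64 to 5.58) in oeRNF112. AKR1C1 was the lowest at 2.18 ± 0.132 and 1.96 ± 0.134.

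RPKM are scaled to library totals alone, and on that scale the groups also did not overlap for NFE2L2 (35.1 to 40.1 in vector, 40.2 to 46.9 in oeRNF112) and for GCLC. With library totals in place of TMM factors in edgeR, the log2 fold change was 0.20 for NFE2L2 (adjusted p = 0.163) and 0.35 for GCLC (adjusted p = 0.0773), so neither passed the test. On the same scaling NQO1 was still lower, with a log2 fold change of -0.44 and an adjusted p of 0.00877 by edgeR.

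Genes that control NRF2 changed in both directions. Of 14 such genes, all tested, 5 were called higher (35.7%) and 2 lower (14.3%), beside 9.97% and 8.14% of all genes tested. The other 7 were not called, and the 14 genes had a median of 0.14 on the log2 scale. This list was also chosen with earlier results of these data known, so its shares are a description and not a test. The small MAF proteins, which lack an activation domain and pair with NRF2 or BACH1, all rose. MAFK had 30.1, 32.3 and 36.5 CPM in vector and 57.6, 56.3 and 54.6 in oeRNF112, a rise of 1.70-fold (log2 fold change 0.77, SE 0.0975, adjusted p = 0.00101 by edgeR's test). MAFF had 65.3, 59.1 and 70.4 CPM in vector and 94.7, 115 and 94.7 in oeRNF112, a rise of 1.56-fold (adjusted p = 0.00383 by edgeR). MAFG had 73.2, 82.4 and 75.4 CPM in vector and 111, 106 and 116 in oeRNF112, a rise of 1.44-fold (adjusted p = 0.00343 by edgeR). The groups did not overlap for any of the 3 genes.

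BACH1 (chr21:29194071-29630751, plus strand), the repressor that competes with NRF2 at antioxidant response elements, had 61.6, 68.4 and 45.2 CPM in vector and 117, 113 and 136 in oeRNF112. All oeRNF112 samples were above all vector samples, and BACH1 rose 2.09-fold (log2 fold change 1.06, SE 0.146, adjusted p = 0.00147 by edgeR's test), the largest change on this list. HMOX1, which BACH1 is known to repress, was higher in the same samples. BACH1 and the 3 small MAF genes were called in each of the 16 alternative settings. The related repressor BACH2 was low, at 3.45 to 5.23 CPM over the 6 samples, and did not pass the test (log2 fold change -0.16, adjusted p = 0.567 by edgeR).

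KEAP1 (chr19:10486120-10503741, minus strand), the adaptor that marks NRF2 for degradation, had 56.8, 52.6 and 64.1 CPM in vector and 41.7, 42.6 and 38.2 in oeRNF112. The groups did not overlap, and KEAP1 fell to 0.706 of its vector level (log2 fold change -0.50, SE 0.101, adjusted p = 0.00898 by edgeR's test), a call that held in 15 of the 16 settings. SQSTM1, which encodes p62, a protein that sequesters KEAP1, had 634, 558 and 638 CPM in vector and 767, 887 and 751 in oeRNF112. It rose 1.31-fold (adjusted p = 0.0248 by edgeR), a call that was lost without vector replicate 1 (adjusted p = 0.0697), oeRNF112 replicate 1 (0.0713) or oeRNF112 replicate 2 (0.0534). DPP3, a peptidase that also binds KEAP1, fell by 0.40 on the log2 scale (adjusted p = 0.0348 by edgeR). That call held in only 6 of the 16 settings. It was lost without vector replicate 1 (adjusted p = 0.0645), vector replicate 3 (0.0835), oeRNF112 replicate 1 (0.108) or oeRNF112 replicate 3 (0.124), with library totals (0.0764) or upper quartile factors (0.0501), and in all 3 limma fits (0.0685 to 0.141).

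The other parts of the degradation machinery were not called. The log2 fold changes were -0.07 for the scaffold CUL3 (adjusted p = 0.576 by edgeR), -0.36 for the RING subunit RBX1 (0.0854), -0.0047 for the alternative adaptor BTRC (0.981) and 0.20 for the kinase GSK3B (0.346). RBX1 was called lower without vector replicate 2 (adjusted p = 0.0273 by edgeR) or oeRNF112 replicate 2 (0.0230), and GSK3B was called higher without vector replicate 2 (0.0369). The directions of CUL3 and BTRC depended on the scaling, since both were above 0 with library totals. The relatives NFE2L1 (log2 fold change 0.20, adjusted p = 0.117 by edgeR) and NFE2L3 (0.08, adjusted p = 0.518) did not pass the test, but NFE2L1 was called higher with library totals (log2 fold change 0.29, adjusted p = 0.0367) and in 2 of the 3 limma fits (0.0307 and 0.0314).

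**Figure D2:**
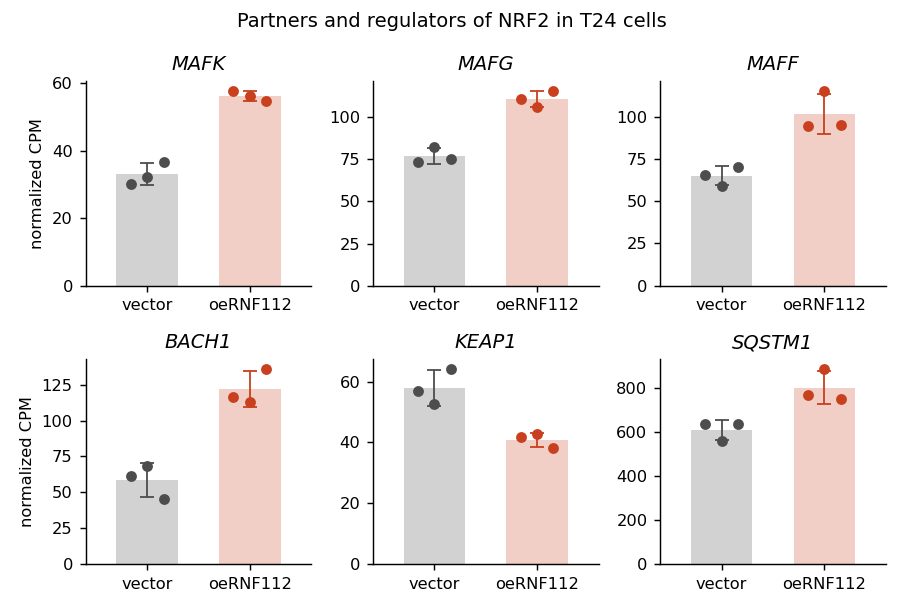
Normalized CPM (y axis, from 0) of MAFK, MAFG, MAFF, BACH1, KEAP1 and SQSTM1 in vector and oeRNF112 samples, with 1 point per sample, bars at the mean of 3 samples and error bars of 1 SD. KEAP1 is lower in all 3 oeRNF112 samples (38.2 to 42.6 against 52.6 to 64.1 in vector) and the other 5 genes are higher in all 3.

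**Figure D3:**
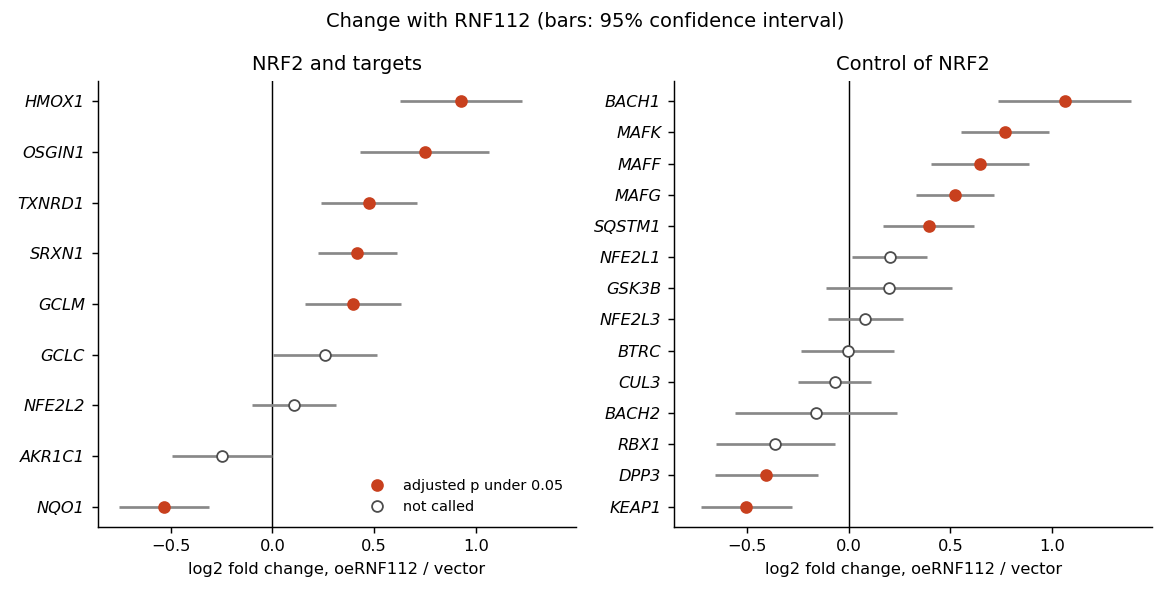
Log2 fold changes (x axis, oeRNF112 over vector, edgeR) of the 9 tested genes of the NRF2 program (left) and the 14 genes of NRF2 control (right), with 95% confidence intervals as bars and filled points at an adjusted p under 0.05. HMOX1 at 0.93 and BACH1 at 1.06 lie farthest to the right, NQO1 at -0.53 and KEAP1 at -0.50 farthest to the left, and the interval of NFE2L2 includes 0.

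On 7 lists of neighbouring antioxidant functions, 65 genes were tested. Of these, 3 were called higher (4.62%) and 12 lower (18.5%), beside 9.97% and 8.14% of all genes tested. These lists too were chosen with earlier results of these data known, so the shares are a description and not a test. Among all genes tested, the least abundant quartile by mean count had 12.5% called higher and 3.76% lower. The most abundant quartile had 7.13% and 11.3%, and the part of abundance in the shares of the lists was not tested. Together with the control list, 79 of 85 listed genes were tested, of which 8 were called higher (10.1%), 14 lower (17.7%) and 57 not called, with a median log2 fold change of -0.07. These counts moved with the scaling, to 13 higher and 9 lower with library totals, and with single samples. The higher calls were 5 without vector replicate 1, 4 without oeRNF112 replicate 1 and 5 without oeRNF112 replicate 3. The lower calls were 6 without any one of those 3 samples, 8 without vector replicate 3 and 22 without vector replicate 2.

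On the list of glutathione supply and use, 1 of 14 tested genes rose and 1 fell, with a median log2 fold change of -0.11. SLC7A11, the cystine carrier that feeds glutathione synthesis, had 56.0, 67.7 and 47.2 CPM in vector and 76.9, 73.5 and 116 in oeRNF112 (log2 fold change 0.64, adjusted p = 0.0379 by edgeR). GPX1, a glutathione peroxidase, fell by 0.52 on the log2 scale (adjusted p = 0.0377 by edgeR). GPX1 also lost its call with library totals (0.0602), upper quartile factors (0.0513) and all 3 limma fits (0.0679 to 0.174), and SLC7A11 in 2 of the 3 limma fits (0.0522 and 0.141). Both calls were lost when vector replicate 1, vector replicate 3, oeRNF112 replicate 1 or oeRNF112 replicate 3 was left out, with adjusted p of 0.0586 to 0.131 for SLC7A11 and 0.107 to 0.128 for GPX1. The transferase GSTP1 had a log2 fold change of -0.40 and an adjusted p of 0.0653 by edgeR, and was called lower with DESeq2 (0.0286), with no filter (0.0442), and without vector replicate 2 (0.00951) or oeRNF112 replicate 2 (0.0316).

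On the list of thioredoxins, peroxiredoxins and sestrins, 1 of 14 tested genes rose and 2 fell, with a median of -0.15. SESN2, a stress-induced sestrin, rose by 0.50 on the log2 scale (adjusted p = 0.0162 by edgeR). The peroxiredoxin PRDX2 fell by 0.41 (adjusted p = 0.0222 by edgeR) and the mitochondrial thioredoxin TXN2 by 0.53 (0.0254). SESN2 was not called without vector replicate 1, oeRNF112 replicate 1 or oeRNF112 replicate 3, with adjusted p of 0.0506 to 0.0596 by edgeR. PRDX2 and TXN2 were not called without those samples or without vector replicate 3, with adjusted p of 0.0593 to 0.102 and 0.0577 to 0.0943, or by limma without a filter (0.0826 and 0.122).

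The enzymes that make NADPH, the reductant used by TXNRD1 and NQO1, had 2 of 6 genes called, both of them lower, and a median of -0.20 on the log2 scale. TKT, the transketolase of the pentose phosphate pathway, had 901, 873 and 946 CPM in vector and 557, 573 and 510 in oeRNF112. The groups lay far apart, and TKT fell by 0.73 on the log2 scale (SE 0.088, adjusted p = 0.000754 by edgeR's test), a call that held in all 16 settings. TALDO1 had a log2 fold change of -0.37 (adjusted p = 0.0578 by edgeR) and was called lower with DESeq2 (0.0264), with no filter (0.0442), and without vector replicate 2 (0.0101) or oeRNF112 replicate 2 (0.0360).

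On the list of heme and iron handling, 1 of 9 tested genes was called, and it was lower, with a list median of 0.09 on the log2 scale. FECH, which inserts iron to make heme, had 63.8, 62.5 and 57.7 CPM in vector and 43.3, 40.9 and 38.8 in oeRNF112. It fell by 0.58 on the log2 scale (adjusted p = 0.00262 by edgeR's test) in all 3 samples, while HMOX1, which breaks heme down, rose. The iron exporter SLC40A1 (log2 fold change 0.57, adjusted p = 0.0505 by edgeR) was just short of the threshold and was called higher in 7 of the 16 settings, DESeq2 (0.0356) and all 3 limma fits (0.0177 to 0.0460) among them. The biliverdin reductase BLVRB (0.28, adjusted p = 0.220 by edgeR) did not pass the test.

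Of 13 tested genes for carbonyl and quinone metabolism, 1 rose and 4 fell, and the median was -0.14 on the log2 scale. ALDH3A2, which oxidizes fatty aldehydes, had 111, 108 and 108 CPM in vector and 70.2, 70.6 and 72.7 in oeRNF112, a fall by 0.61 on the log2 scale (adjusted p = 0.0010 by edgeR). ALDH3A2 and AKR1C3 were called in all 16 settings. CYP4F11 was low, at 0.466 to 0.784 CPM in vector and 1.34 to 1.42 in oeRNF112, and rose by 1.20 on the log2 scale (adjusted p = 0.0171 by edgeR), a call lost without vector replicate 3 (0.0540), oeRNF112 replicate 1 (0.0587) or oeRNF112 replicate 3 (0.0592). AKR1A1 (log2 fold change -0.48, adjusted p = 0.0225 by edgeR) and EPHX1 (-0.33, adjusted p = 0.0278) were the other falls.

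Among 5 exporters of conjugates, ABCC3 fell by 0.62 on the log2 scale (adjusted p = 0.00717 by edgeR) and the others were not called, with a list median of -0.0046. ABCC3 lost its call by limma without a filter (0.0750). ABCC2 (log2 fold change 0.14, adjusted p = 0.719 by edgeR) and ABCC4 (-0.26, adjusted p = 0.170) were among them, and ABCC4 was called lower without vector replicate 3 (0.0345). Of 4 superoxide dismutase and catalase genes, CAT fell by 0.31 (adjusted p = 0.0427 by edgeR), a call that held in 1 of the 6 fits that left out a sample and in 4 of the 16 settings in all. The median of these 4 genes was -0.28 on the log2 scale. SOD1 (log2 fold change -0.25, adjusted p = 0.202 by edgeR) and SOD3 (-0.75, adjusted p = 0.146) did not pass the test, and SOD1 was called lower without vector replicate 2 (0.0363).

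**Figure D4:**
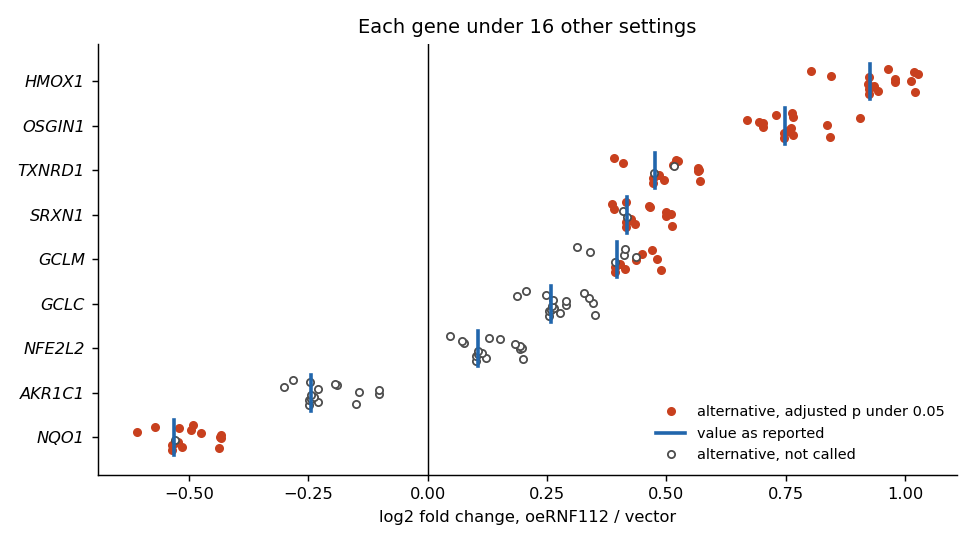
Log2 fold changes (x axis, oeRNF112 over vector) of the 9 tested genes in 16 alternative settings, with 1 point per setting, filled where the adjusted p was under 0.05, and a line at the value reported in the text. All points of HMOX1 and OSGIN1 are filled and above 0, those of NQO1 are below 0 and filled in all but 1 of the 16 settings, and none of NFE2L2 is filled.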

How the data were processed

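Libraries of 3 vector and 3 oeRNF112 samples of T24 cells were made with a stranded mRNA kit and sequenced. The deposited files hold raw read counts for each gene and RPKM values, which the authors made by scaling reads to gene length and library total. The submitters' processing notes name Trimmomatic 0.36, featureCounts of Subread 1.5.1 and GRCh38. The aligner and the annotation release are not given in the sources used here. Over the 7210 genes compared, the length implied by RPKM and counts was the same in all samples within a relative 4.19e-09, so both tables hold 1 measurement. No pair of libraries held the same counts.

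Counts were filtered with edgeR's filter on low counts, scaled with TMM factors (0.957 to 0.988 in vector, 1.01 to 1.05 in oeRNF112) and tested with edgeR 4.0.16 in R 4.3.3 by the quasi-likelihood test, with Benjamini-Hochberg adjustment over 14467 genes. The SE was the log2 fold change divided by the square root of F, with its interval from the t distribution. The ratios of 2 genes were compared by an exact permutation test. Lists of NRF2 control, glutathione, thioredoxin, NADPH, heme and iron, carbonyl and quinone, export and superoxide genes, and of urothelial and leukocyte markers, were written by hand. The genes and lists were chosen with earlier results of these data known. The genes named by rule are the 10 genes of the NRF2 program, RNF112, the control list, 8 paralogs, the 3 genes of smallest p on each other list and the 3 nearest profiles of NFE2L2 and HMOX1. The results of some genes under this rule are not reported here. AKR1A1, EPHX1 and the named markers fall outside the rule and were picked with their values in view.

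Promoter sequences came from a RefSeq table (GRCh38.p14), and gene positions, exons and shared 50-base windows of the longest transcript from GENCODE 29. Protein sequences were not used here. Alternatives were RLE and upper quartile factors, library totals, DESeq2 1.42.0, no filter, at least 10 counts in every sample, a replicate block, limma 3.58.1 on log2(RPKM + 1) with and without a filter and on log2(RPKM + 0.1), and each sample left out in turn. The scripts were tested on simulated counts of 14299 genes: edgeR recovered 84.7% of 98 genes changed by 1 on the log2 scale and 95.9% of 98 changed by 2, with 6 false calls among 183. Smaller changes, such as those called among the genes of the NRF2 program, were not simulated. Far fewer genes were changed in the simulation than were called in these data.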

Additional observations from a re-analysis of the deposited data

How the results depend on the processing

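The 9 tested genes of the NRF2 program kept their direction in all 16 alternative settings, and of 144 values 11, in 4 genes, lost their call (GCLM, TXNRD1, SRXN1 and NQO1). Deviations of same-numbered samples from their group means correlated at -0.116, -0.363 and -0.296, which gave no sign of pairing by number. The deviations were taken from each group's own mean, which ties them together, so these values cannot settle whether the samples were paired. With the replicate block, which leaves fewer residual degrees of freedom, 876 genes differed (618 higher, 258 lower) in place of 2620, the list calls were 4 higher and 5 lower in place of 8 and 14, and 2 genes of the program were called higher and 0 lower. At an unadjusted p under 0.05 the block gave 1 lower, NQO1 (adjusted p = 0.0631), and DESeq2, without a block, called 1 lower. With the block GCLM, TXNRD1 and SRXN1 had adjusted p of 0.150, 0.105 and 0.0971, and KEAP1 (0.0764), SQSTM1 (0.153), DPP3 (0.161), SLC7A11 (0.119), GPX1 (0.124), SESN2 (0.0681), PRDX2 (0.134), TXN2 (0.107), CYP4F11 (0.0656) and CAT (0.201) were not called either, and limma without a filter gave 0.0629 for GCLM. Leaving out each sample gave 1061 (without vector replicate 1) to 3387 genes differing (702 to 1841 higher, 359 to 1546 lower), 2 to 5 genes of the program higher, and list calls of 4 to 10 higher and 6 to 22 lower. The count of genes differing was 1263 without oeRNF112 replicate 1 and 1446 without oeRNF112 replicate 3, and the cause was not tested. Of all genes, 659 were lower with library totals, 669 with limma and a pseudocount of 1, 682 with one of 0.1 and 424 with 1 and no filter. List calls were 13 higher and 9 lower with library totals, 13 higher with the pseudocount of 0.1 and 5 lower with limma without a filter. The median over all genes tested was 0.0962 on the log2 scale with library totals and 0.0027 as reported.

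Values near 0 changed sign, none of them called. With library totals the log2 fold changes were 0.0238 for CUL3, 0.0886 for BTRC, 0.0469 for AKR1B1 and 0.0384 for TXNRD2. With limma (pseudocount 1, with or without a filter, and 0.1) they were 0.0233 and 0.0249 for CUL3, 0.0818 and 0.0902 for BTRC, 0.0489 and 0.0493 for AKR1B1 and 0.0375 and 0.0412 for TXNRD2. BTRC was at 0.0146 with upper quartile factors and at 0.0035 with at least 10 counts in every sample. With each sample left out, values ran from -0.0743 to 0.0677 for BTRC, -0.120 to 0.0099 for AKR1B1, -0.132 to 0.0466 for TXNRD2, -0.0129 to 0.0710 for TXNRD3 and -0.0403 to 0.427 for ABCC2. Depth limits AKR1B10, AKR1B15 and AKR1C2, which had at most 16 counts. With 3 samples a group, the self-test on simulated counts still made calls. It held no changes as small as those called among the genes of the program, so it does not give the recovery at their size.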
